A study of Homo sapiens with 24 samples.

Results

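The response of SGCTRL cells to LPDS was read from 6 of the 24 libraries of the series, 3 of SGCTRL cells after 3 days in LPDS medium and 3 of SGCTRL cells after 3 days in FBS medium. SGCTRL derives from HGC27, an established cell line of human gastric carcinoma, and carries a control guide, with a wild type label. The labels leave LPDS and FBS unexplained. They usually stand for lipoprotein-deficient serum and fetal bovine serum, so that the comparison asks what HGC27 cells with no targeted gene do when the lipoproteins of serum are withdrawn. The other 18 libraries are from parental HGC27 cells (wild type per the labels) and from SG12 and SG21, both labelled as TMEM97 knockouts. Each line was again in both media for 3 days. These libraries enter here for comparison and to share the scaling and the estimate of spread. They also helped to set which entries were read and tested. The labels do not say whether SGCTRL is a clone or a pool, or how the guide was delivered. The titles call each replicate biological, without saying whether that means separate cultures or days. The p-values here thus reflect the scatter among libraries, part of which may be technical. The design is of cultured cells alone, and a lower level in bulk RNA cannot separate fewer cells of a kind from less RNA per cell.

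Reads on genes numbered 3.07, 3.39 and 5.54 M in the LPDS libraries and 2.95, 3.12 and 3.67 M in the FBS libraries, which is 5.42% to 5.47% and 5.34% to 5.38% of their uniquely aligned reads. LPDS replicate 3 stood apart in depth, and reads aligned to more than a single place ran from 10.8% to 19.6% in LPDS and from 14.5% to 17.4% in FBS. The first principal component of the 6 libraries held 36.8% of the variance over 7950 entries and separated the media, at 13.9 to 19.8 in LPDS and -20.6 to -14.9 in FBS. Reads mostly stood under the name on the other strand: where a protein-coding gene and an antisense gene overlap, the antisense name held more reads in 1578 of 2363 cases (66.8%). Each gene is therefore read from the entry that overlaps its exons on the other strand, named in parentheses. Levels are counts per M reads on genes (CPM), they cover only the overlapping stretch, and they cannot be compared between genes. This reading reaches 2810 protein-coding genes.

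The cells are labelled as stomach epithelium, which these files could not settle. Of 5 epithelial markers (EPCAM, CDH1, KRT8, KRT18 and KRT19), 3 have an opposite-strand entry and none of these passed the level a gene needs to be read. Their own entries summed to 0.353 to 0.672 CPM in LPDS and 0.284 to 3.06 CPM in FBS. None of 6 gastric markers could be read, with own entries summing to 2.69 to 4.31 CPM in LPDS and 2.38 to 7.96 CPM in FBS. Of 8 mesenchymal markers 6 were read, led by VIM (VIM-AS1), the intermediate filament vimentin, at 26266 ± 3418 CPM in LPDS and 25027 ± 3152 CPM in FBS (SD, n = 3 each). Of markers of other cells, own entries of 5 leukocyte genes summed to 11.4 to 20.3 CPM in LPDS and 19.9 to 21.6 CPM in FBS. CD68 led them, with PTPRC and CD3E at 0. Own entries of 6 fibroblast genes summed to 47.7 to 98.7 CPM in LPDS and 50.6 to 112 CPM in FBS. Nearly all of this was COL1A1, at a mean of 72.8 CPM in LPDS and 77.2 CPM in FBS. None of these marker genes could be read, both sums overlap between media, and their part in the results was not tested. The targeted gene of the series, TMEM97, is intact per the labels in SGCTRL, and its values are given with the sterol genes.

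Mammalian cells take up cholesterol with lipoproteins and also make it from acetyl-CoA in the mevalonate and sterol pathways. When membrane cholesterol in the endoplasmic reticulum falls, SREBP transcription factors are cut free and switch on genes of synthesis and uptake, and when sterols are plentiful their oxidised forms activate LXR receptors, which switch on genes of cholesterol export and phospholipid remodelling. Promoters of SREBP targets typically pair a sterol regulatory element with a CCAAT box bound by NF-Y, and genes induced in hypoxia carry an ACGTG core bound by HIF.

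Promoters of genes that carry the result are printed from 250 bases before to 50 bases after the start, 5′ to 3′ on the gene's strand, from RefSeq on GRCh38.p14. The first 3 are lipid genes that rose in LPDS, with capitals on CCAAT or its complement ATTGG.
HMGCS1 (chr5:43313363-43313662, minus strand): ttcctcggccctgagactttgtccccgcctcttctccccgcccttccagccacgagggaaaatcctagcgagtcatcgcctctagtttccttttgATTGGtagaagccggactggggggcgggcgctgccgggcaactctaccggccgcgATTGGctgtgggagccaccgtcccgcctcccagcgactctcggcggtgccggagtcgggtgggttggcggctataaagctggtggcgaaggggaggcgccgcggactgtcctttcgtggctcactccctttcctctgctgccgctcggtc
LSS (chr21:46228725-46229024, minus strand): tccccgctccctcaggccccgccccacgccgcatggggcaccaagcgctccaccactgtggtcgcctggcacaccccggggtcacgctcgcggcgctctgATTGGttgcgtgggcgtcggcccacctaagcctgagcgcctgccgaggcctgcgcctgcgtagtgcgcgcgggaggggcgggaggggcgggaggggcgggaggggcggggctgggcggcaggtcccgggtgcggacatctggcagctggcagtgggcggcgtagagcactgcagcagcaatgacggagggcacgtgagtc
PCYT2 (chr17:81911350-81911649, minus strand): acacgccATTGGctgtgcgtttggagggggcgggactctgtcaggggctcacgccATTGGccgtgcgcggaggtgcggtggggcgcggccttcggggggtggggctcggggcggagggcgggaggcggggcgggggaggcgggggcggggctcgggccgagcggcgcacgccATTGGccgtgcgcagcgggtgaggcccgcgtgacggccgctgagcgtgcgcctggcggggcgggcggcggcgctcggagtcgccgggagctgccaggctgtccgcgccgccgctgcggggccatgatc
SREBF2, whose RNA was nearly equal in the media, is shown beside them because it holds the sterol element TCACNCCAC, also in capitals, as well as a CCAAT box.
SREBF2 (chr22:41832855-41833154, plus strand): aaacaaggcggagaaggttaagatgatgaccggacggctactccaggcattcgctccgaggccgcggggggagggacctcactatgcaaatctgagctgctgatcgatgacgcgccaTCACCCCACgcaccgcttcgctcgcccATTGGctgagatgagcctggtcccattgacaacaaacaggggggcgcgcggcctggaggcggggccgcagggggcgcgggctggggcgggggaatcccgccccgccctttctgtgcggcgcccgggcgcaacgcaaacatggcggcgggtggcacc
The last pair are genes that fell in LPDS, with capitals on ACGTG or its complement CACGT.
ANKRD37 (chr4:185396591-185396890, plus strand): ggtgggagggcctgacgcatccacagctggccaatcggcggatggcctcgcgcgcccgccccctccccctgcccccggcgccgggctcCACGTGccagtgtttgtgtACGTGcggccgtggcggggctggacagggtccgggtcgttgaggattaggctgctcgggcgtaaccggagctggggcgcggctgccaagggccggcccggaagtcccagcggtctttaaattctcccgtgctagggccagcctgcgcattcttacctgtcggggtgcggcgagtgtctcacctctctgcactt
LOX (chr5:122078210-122078509, minus strand): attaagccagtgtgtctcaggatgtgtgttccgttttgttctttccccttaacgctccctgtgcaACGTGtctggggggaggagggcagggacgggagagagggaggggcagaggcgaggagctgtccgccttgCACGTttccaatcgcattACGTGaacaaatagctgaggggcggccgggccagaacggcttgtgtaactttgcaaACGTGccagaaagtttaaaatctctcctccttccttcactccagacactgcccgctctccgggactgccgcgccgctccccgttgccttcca

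CCAAT was searched on both strands and was found in all 6 of the rising sterol and lipid genes that have a listed promoter (HMGCS1, IDI1, LSS, PCYT2, ACLY and LPCAT3). It is common, being present in 34.6% of 35116 RefSeq promoters of this length and in at least 1 promoter of 39.7% of genes. In the printed promoters it begins 155 and 100 bases before the start in HMGCS1, 150 bases before in LSS, and 243, 195 and 78 bases before in PCYT2. Where a gene has more than 1 listed promoter, the printed one is that with the most matches. The other listed promoter of HMGCS1, that of PCYT2, and 1 of the 3 of IDI1 hold no CCAAT. TCACNCCAC, which 1.13% of promoters hold, was in none of the 6, and in SREBF2 it begins 133 bases before the start, with the CCAAT box 106 bases before. CCAAT was also in 2 of the 3 falling hypoxia genes with a listed promoter (ANKRD37 and LOX), and TCACNCCAC was in the third (ALDOC). ACGTG, which also counts each CACGTG, was in all 3 of these (ANKRD37, LOX and ALDOC), against 21.4% of promoters and 24.9% of genes. The printed LOX promoter holds it 4 times, 185, 116, 98 and 42 bases before the start, and each other listed LOX promoter holds it 1 time. Of the other motifs searched, CACGTG was in LSS, ALDOC and ANKRD37 (7.26% of promoters hold it) and TGATGNAA in none of these 9 genes (3.62%). A match of letters is a description of the window and not a bound site.

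A small share of the entries tested in SGCTRL cells differed between the media at the threshold used. Of 12822 entries tested, 289 passed edgeR's quasi-likelihood test at an adjusted p under 0.05 (2.25%), with 165 higher in LPDS (1.29%) and 124 lower (0.967%). Of the 2810 protein-coding genes read from the opposite strand 98 passed (3.49%), 56 higher (1.99%) and 42 lower (1.49%). The 3 LPDS libraries did not overlap the 3 FBS libraries in 288 of the 289 entries, a separation that 22.5% of all entries showed. Of the 289 entries 106 changed over 2-fold. Among the read genes the median log2 fold change was 0.72 for the 56 that rose and -0.55 for the 42 that fell, beside 0.02 over all 2810. The count rests on all 6 libraries, since it fell to between 121 (without FBS replicate 2) and 180 (without LPDS replicate 1) when single libraries were left out, and it was 654 with a spread from the 6 libraries alone.

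Genes of cholesterol synthesis rose together. Of 20 genes of the pathway 6 could be read, and 5 rose (1.99% of all read genes did), HMGCS1, ACAT2, IDI1 and LSS among them. The media did not overlap in any of the 5 (27.2% of all read genes do not overlap). The sixth, FDFT1, did not pass. The median log2 fold change of the 6 was 0.79. The 14 others, SQLE among them, could not be read.

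ACAT2 (TCP1), the cytosolic thiolase that joins acetyl-CoA units at the head of the pathway, had 403, 398.5 and 377 CPM in LPDS and 228, 194 and 230.5 CPM in FBS. HMGCS1 (ENSG00000261604, chromosome 5, 43289395 to 43313512 in hg38), which makes HMG-CoA in the next step, had 3965, 3992 and 3636 CPM in LPDS and 1869, 1843 and 2190 CPM in FBS. In both genes every LPDS library lay far above every FBS library. The log2 fold change was 0.85 ± 0.10 (SE) for ACAT2 (adjusted p = 1.04e-06) and 0.97 ± 0.10 for HMGCS1 (adjusted p = 3.98e-08), or 1.81-fold and 1.96-fold.

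IDI1 (IDI2-AS1), the isomerase that supplies both five-carbon building blocks, had 408, 427 and 440.1 CPM in LPDS and 232, 231 and 266 CPM in FBS (0.81 ± 0.17, adjusted p = 0.00547). That call is lost under an estimate of spread that is robust to outlying entries, where the adjusted p is 0.0657. FDFT1 (ENSG00000255046), squalene synthase, had 34.6, 30.5 and 25.2 CPM in LPDS and 32.3, 33.7 and 37.8 CPM in FBS, values that overlap and differ by -0.22 ± 0.20 (adjusted p = 0.715). The entry overlaps FDFT1 by 217 bases.

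LSS (ENSG00000223901, chromosome 21), which folds squalene epoxide into the first sterol, had 665, 638 and 625 CPM in LPDS and 382, 381 and 370.3 CPM in FBS. The FBS libraries spread by an SD of 6.4 CPM, and the fold was 1.70 (log2 0.77 ± 0.10, adjusted p = 2.13e-06).

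**Figure D1:**
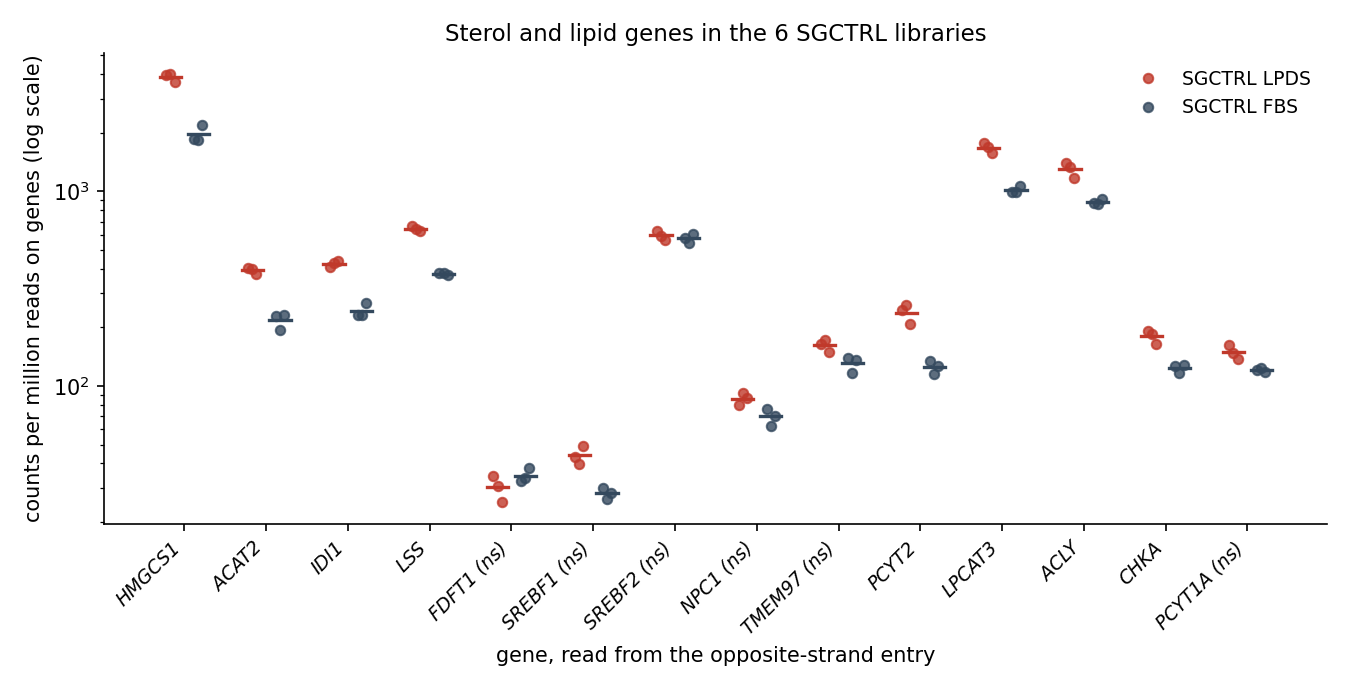
Level of 14 sterol and lipid genes in each SGCTRL library, in CPM on a log axis, with the 3 LPDS libraries as red points left of the 3 FBS libraries in dark points, a bar at each mean, and ns for genes that did not pass. HMGCS1, at 3636 to 3992 CPM in LPDS and 1843 to 2190 CPM in FBS, is separated by more than its spread, while SREBF2 and FDFT1 overlap.

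Genes of sterol uptake and of SREBP control moved less, and none of the 7 that were read passed edgeR's test. Of the 7, 3 had an unadjusted p under 0.05 (16.3% of all read genes did). DESeq2 called 2 of them, SREBF1 included, and 143 of all 2810 read genes. SREBF1 (RAI1), the SREBP gene tied most to fatty acid synthesis, had 43.3, 39.7 and 49 CPM in LPDS and 29.95, 26.2 and 28.1 CPM in FBS (log2 0.65 ± 0.19, adjusted p = 0.0604). SREBF2 (SREBF2-AS1), the SREBP gene tied most to cholesterol, had 627, 592 and 562 CPM in LPDS and 574.5, 544 and 606 CPM in FBS, so the media overlap (0.05 ± 0.11, adjusted p = 0.912). NPC1 (RMC1), which moves cholesterol out of lysosomes, was at 86.1 ± 6.38 CPM in LPDS and 69.8 ± 7.09 CPM in FBS (SD, n = 3 each), a log2 difference of 0.30 ± 0.16 (adjusted p = 0.411). VLDLR and LRP8, lipoprotein receptors, differed by -0.26 and 0.05.

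TMEM97 (IFT20, chromosome 17, 28319095 to 28328685), the sigma-2 receptor, which binds NPC1, belongs to this group too. It had 164, 173 and 150.3 CPM in LPDS and 139.9, 116 and 136 CPM in FBS. Every LPDS library was above every FBS library, by a log2 fold change of 0.31 ± 0.12 (adjusted p = 0.191). It passed only with a spread from the 6 SGCTRL libraries alone (adjusted p = 0.0465). The guide in SGCTRL is a control, so the level serves as the line's own baseline and tests no label.

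Some lipid genes outside the sterol pathway also rose. Of 28 genes of fatty acid and glycerolipid synthesis 10 were read. Of these 3 rose (PCYT2, ACLY and CHKA), against 1.99% of all read genes, and none fell, with a median log2 fold change of 0.18. PCYT2 (NPB), which activates ethanolamine for phosphatidylethanolamine, had 245, 261 and 208 CPM in LPDS and 134, 115 and 127 CPM in FBS (0.92 ± 0.13, adjusted p = 2.60e-05). CHKA (ENSG00000255031), the kinase that commits choline to phosphatidylcholine, had 193, 185 and 164 CPM in LPDS and 126, 116 and 128 CPM in FBS (0.55 ± 0.12, adjusted p = 0.00547). PCYT1A (SLC51A), which activates phosphocholine and so stands in the choline branch where PCYT2 stands in the ethanolamine branch, was at 149.5 ± 12.6 CPM in LPDS and 121 ± 3.15 CPM in FBS (SD, n = 3 each). Its difference of 0.30 ± 0.12 did not pass (adjusted p = 0.197).

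ACLY (ENSG00000274630), ATP citrate lyase, which supplies acetyl-CoA to both sterols and fatty acids, had 1396, 1341 and 1173 CPM in LPDS and 874, 863 and 912.5 CPM in FBS (0.56 ± 0.09, adjusted p = 0.000242). FADS1 (FADS2) and FADS2 (FADS1), desaturases of polyunsaturated fatty acids that overlap each other, were at 0.37 ± 0.14 and -0.41 ± 0.17, and neither passed. ACSL3 (ACSL3-AS1), an acyl-CoA synthetase, had 17.8 ± 1.8 CPM in LPDS and 17.8 ± 1.6 CPM in FBS (SD, n = 3 each). DGAT2, which makes triglyceride, MID1IP1, a partner of acetyl-CoA carboxylase, and PEMT, which methylates phosphatidylethanolamine to phosphatidylcholine, lay at -0.13, 0.05 and -0.03, and none passed. FASN, SCD and ACACA could not be read.

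LPCAT3 (EMG1), which places polyunsaturated chains into phospholipids and is a known LXR target, rose as well. It had 1768, 1684 and 1575 CPM in LPDS and 994, 994 and 1059.5 CPM in FBS, with a fold of 1.65 (log2 0.72 ± 0.09, adjusted p = 3.71e-06). It was 1 of only 2 LXR targets read, the other being NR1H3 (ACP2), the LXR alpha receptor, at 7.36 ± 1.68 CPM in LPDS and 7.55 ± 2.3 CPM in FBS (SD, n = 3 each; -0.03 ± 0.39). So the LXR list rests on a single gene that passed. The export pumps ABCA1 and ABCG1 could not be read.

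Immediate early genes, the first transcripts switched on by growth factor signals, were higher in LPDS. Of 30 on the list 4 were read, and 3 rose (1.99% of all read genes did). All 4 had LPDS above FBS in every library (27.2% of all read genes do not overlap, in either direction). Their median log2 fold change was 0.73. IER2 (ENSG00000267598), a nuclear early response protein, had 3127, 3486 and 2959 CPM in LPDS and 1598, 1423 and 1854 CPM in FBS (0.97 ± 0.12, adjusted p = 1.63e-06). NR4A1 (NR4A1AS), an orphan nuclear receptor, had 304, 342 and 303 CPM in LPDS and 195, 184 and 227 CPM in FBS (0.65 ± 0.13, adjusted p = 0.00394). JUNB (HOOK2), a subunit of AP-1, had 965, 1105 and 768 CPM in LPDS and 631, 413 and 656 CPM in FBS (0.74 ± 0.14, adjusted p = 0.00242). Its call rests on FBS replicate 2, the lowest library, since without it the log2 fold change is 0.56 and the adjusted p is 0.055. EGR3 (ENSG00000253125), a zinc finger early gene, was at 22.5 ± 2.75 CPM in LPDS and 13.7 ± 0.928 CPM in FBS (SD, n = 3 each), and its 0.72 ± 0.33 did not pass (adjusted p = 0.314).

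Genes induced in hypoxia were lower in LPDS. Of 28 on the list 8 were read, 4 fell (1.49% of all read genes did) and none rose, and the median log2 fold change was -0.52. ANKRD37 (UFSP2, chromosome 4), a HIF target of little-known function, had 37.3, 42.8 and 43.4 CPM in LPDS and 80.3, 79.15 and 90.4 CPM in FBS, so that LPDS held 0.496 of the FBS level (-1.01 ± 0.14, adjusted p = 1.66e-05). Every LPDS library lay below every FBS library. ALDOC (ENSG00000265168), a glycolytic aldolase, had 1009, 1077 and 915 CPM in LPDS and 1288, 1410.2 and 1487 CPM in FBS (-0.48 ± 0.10, adjusted p = 0.00585).

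LOX (SRFBP1, chromosome 5), lysyl oxidase, which cross-links collagen and elastin, had 357, 365 and 327 CPM in LPDS and 498, 539.5 and 579.5 CPM in FBS (-0.63 ± 0.10, adjusted p = 0.000162). LOXL2 (LOXL2-AS1), its relative, had 309, 248 and 239.55 CPM in LPDS and 429.5, 417 and 424 CPM in FBS (-0.68 ± 0.12, adjusted p = 0.00037). LPDS replicate 1 was the highest of its group in LOXL2 and still lay well below FBS. The members that did not pass were not uniform. MXI1, a MYC antagonist, and P4HA2, a collagen prolyl hydroxylase, lay at -0.56 (adjusted p = 0.0682) and -0.41 (adjusted p = 0.0652) with no overlap between media, and PDK1, which blocks pyruvate entry into the TCA cycle, at -0.31 with overlap. VEGFA (ENSG00000272114), the vascular growth factor and a classic HIF target, lay on the other side, with 772, 727 and 698 CPM in LPDS and 569, 599.8 and 651 CPM in FBS (0.27 ± 0.10, adjusted p = 0.157).

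Collagen and matrix genes overlap that list. Of 32 on the list 10 were read, and 3 fell (1.49% of all read genes did), which were LOX, LOXL2 and P4HB. The median was -0.14. P4HB (ENSG00000262831), the disulfide isomerase that is also the beta subunit of the prolyl hydroxylase, had 3710, 3664 and 3194 CPM in LPDS and 4603, 4507 and 4658 CPM in FBS (-0.38 ± 0.10, adjusted p = 0.0386). That call is lost without any single SGCTRL library. P4HB was also the only 1 of 6 ER chaperone genes that passed. Below 0 lay 5 of those 6, as did 1315 of all 2810 read genes. PDIA6 at -0.29 (adjusted p = 0.0527) and HSP90B1 at -0.23 (adjusted p = 0.24) were among the 5. TIMP2, LOXL1, LAMB1, SPARC and LOXL3 lay between -0.06 and 0.20 and THBS1, at few reads, at -0.21, and none passed.

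GAPDH (ENSG00000269968), a glycolytic dehydrogenase, had 38843, 39572 and 34891 CPM in LPDS and 50204, 51234 and 52986 CPM in FBS. It fell by 0.45 ± 0.08 on the log2 scale (adjusted p = 0.000501), to 0.734 of the FBS level. Of 5 glycolysis genes read 2 fell, GAPDH and ALDOC (1.49% of all read genes fell). ALDOA lay at -0.25 (adjusted p = 0.16) and ENO1 at 0.33 (adjusted p = 0.355), each without overlap and on opposite sides of 0.

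**Figure D2:**
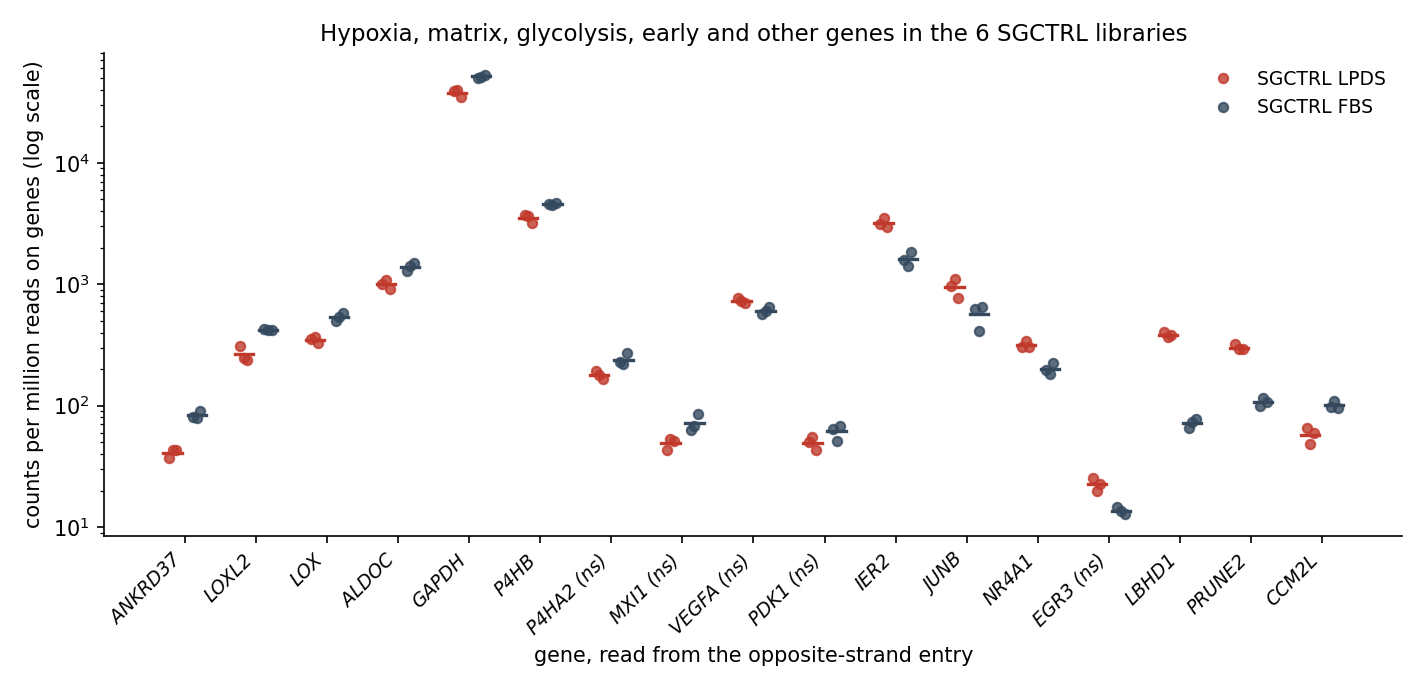
Level of 17 genes in each SGCTRL library, in CPM on a log axis, with LPDS libraries as red points left of FBS libraries in dark points, a bar at each mean, and ns for genes that did not pass. ANKRD37, LOX and LOXL2 lie lower in LPDS without overlap, IER2, LBHD1 and PRUNE2 lie higher, and PDK1 overlaps.

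Rises by size were ranked among passing genes with a mean over all libraries above 48.6 CPM and no overlap between media. Of the 12 largest, HMGCS1, IER2, PCYT2, ACAT2, IDI1, LSS and JUNB are described above, and the other 5 belong to none of these lists. LBHD1 (UQCC3, chromosome 11, 62662817 to 62672255) had 408, 366.5 and 382 CPM in LPDS and 66, 73.2 and 77 CPM in FBS, a 5.34-fold rise (log2 2.42 ± 0.14, adjusted p = 1.52e-14). PRUNE2 (PCA3, chromosome 9), a large protein with a PRUNE domain, had 320.0, 293 and 291 CPM in LPDS and 99.4, 115 and 108 CPM in FBS (1.49 ± 0.11, adjusted p = 9.32e-12). Both lie far outside the spread of either medium. CABLES1 (ENSG00000266495), an adaptor of cyclin-dependent kinases, had 64.5, 67.7 and 55.9 CPM in LPDS and 25.2, 37.8 and 31.5 CPM in FBS (0.98 ± 0.18, adjusted p = 0.000701). ERMAP (ZNF691-DT), an erythroid membrane protein, rose by 0.76 ± 0.12 (adjusted p = 0.000151), at 159.6 ± 1.98 CPM in LPDS and 93.9 ± 4.91 CPM in FBS (SD, n = 3 each). PANK2 (RNF24), the mitochondrial pantothenate kinase that starts coenzyme A synthesis, rose by 0.74 ± 0.17 (adjusted p = 0.0137), a call lost without FBS replicate 1 or 2 or LPDS replicate 2.

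Falls by size were ranked in the same way. DNAJC17 (C15orf62), a spliceosome-linked J protein, had 43, 42.8 and 41.6 CPM in LPDS and 83.7, 75.4 and 66.2 CPM in FBS (-0.82 ± 0.17, adjusted p = 0.0032). PLEKHG3 (SPTB), a guanine nucleotide exchange factor that acts on actin, had 269.9, 245 and 245 CPM in LPDS and 440.4, 426 and 410.4 CPM in FBS (-0.75 ± 0.11, adjusted p = 1.63e-05). CCM2L (ENSG00000226239), a relative of the cerebral cavernous malformation protein CCM2, fell by 0.80 ± 0.15 on the log2 scale and NRG4 (FBXO22), an ERBB4 ligand, by 0.68 ± 0.15. SEPTIN2 (HDLBP), a filament-forming GTPase, had 316, 333 and 302 CPM in LPDS and 476, 493 and 476 CPM in FBS (-0.60 ± 0.10, adjusted p = 0.000242). These 5 passed under every alternative tried. CDCA3, SNAPC3, ARHGAP33 and WDR90 fell by 0.54 to 0.58 and lost their calls under 8 to 10 of 15 alternatives.

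Genes of amino acid stress gave 1 weak call each. ATF5 (NUP62), a transcription factor of the integrated stress response, had 10.1, 10.5 and 11.1 CPM in LPDS and 4.42, 5.99 and 1.99 CPM in FBS (1.36 ± 0.37, adjusted p = 0.0386), and the other 8 of 9 genes read did not pass. Among them SLC7A5 (ENSG00000260466), an amino acid transporter, had 1113, 1141 and 931 CPM in LPDS and 1307, 1350.3 and 1328 CPM in FBS, which do not overlap (-0.32 ± 0.15, adjusted p = 0.337). The one-carbon gene SHMT2 lay at -0.11, and SLC7A11, MTHFD2, ALDH1L2 and CEBPB lay between -0.06 and 0.04. VLDLR and VEGFA, also on that list, lay at -0.26 and 0.27. WARS1 (ENSG00000258666), tryptophanyl-tRNA synthetase, was at 541 ± 45.8 CPM in LPDS and 419 ± 10.6 CPM in FBS (SD, n = 3 each), a rise of 0.37 ± 0.10 (adjusted p = 0.0361) and the only 1 of 7 genes of tRNA charging to pass. CARS1, the cysteinyl-tRNA synthetase, lay at -0.98 ± 0.28 (adjusted p = 0.0598). The calls of ATF5 and WARS1 are each lost under 7 of 15 alternatives.

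**Figure D3:**
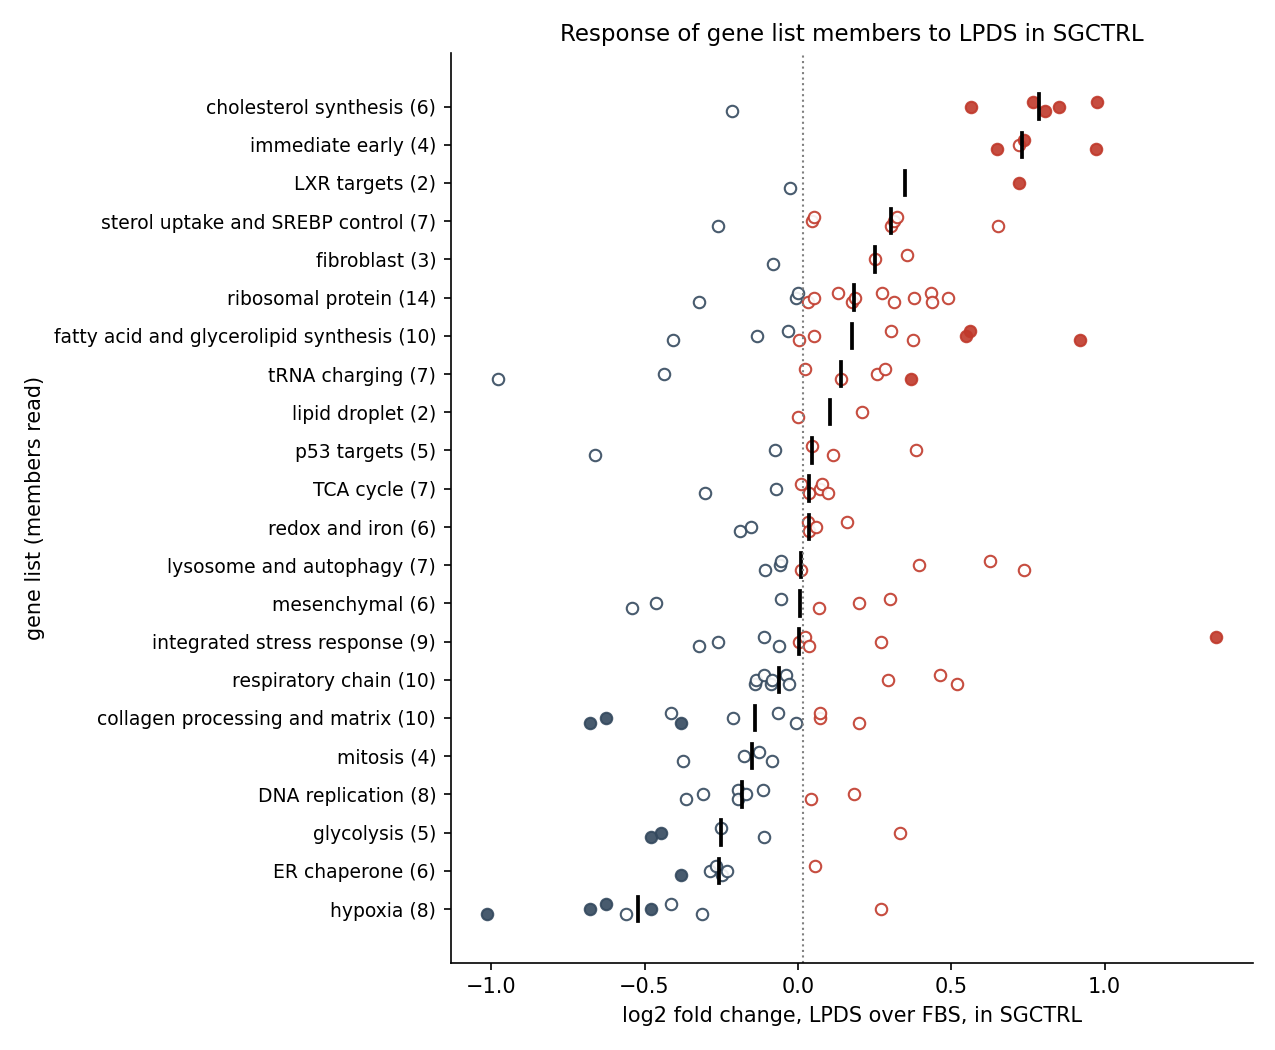
Log2 fold change of LPDS over FBS in SGCTRL for the members read of each gene list with at least 2 of them, filled where a gene passed, with a black bar at the list median and a dotted line at the median of all 2810 genes. The cholesterol synthesis and immediate early lists lie to the right, at medians of 0.79 and 0.73, and the hypoxia list to the left at -0.52.

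In 12 lists with members read, 79 genes in all, no gene passed edgeR's test, although 18 had an unadjusted p under 0.05 (16.3% of all read genes did). DESeq2 called 4 of the 79, SREBF1, TPP1 and RPL10 among them, and 143 of all 2810 read genes. Besides sterol uptake, these lists include lysosome and autophagy (7 genes, median 0.01), DNA replication (8 genes, median -0.18), mitosis (4 genes, median -0.15), the respiratory chain (10 genes, median -0.06), the TCA cycle (7 genes, median 0.04), redox and iron (6 genes, median 0.04), p53 targets (5 genes, median 0.04) and ribosomal proteins (14 genes, median 0.18). The respiratory chain members ranged from -0.14 to 0.52, with NDUFB9, a complex I subunit, at 0.46 (adjusted p = 0.105). TPP1 (ENSG00000255680), a lysosomal peptidase, had 172, 167 and 162 CPM in LPDS and 125, 129.6 and 126 CPM in FBS, which do not overlap (0.40 ± 0.12, adjusted p = 0.087). Lipid droplet (2 genes, median 0.10), mesenchymal (6 genes, median 0.01) and a wider set of fibroblast genes (ACTA2, FAP and THY1, median 0.25) make up the rest. No member of the interferon, epithelial, leukocyte or gastric lists could be read.

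Another 67 protein-coding entries with no readable gene on the other strand and a mean log2 CPM of 2 or more passed. They were higher in LPDS in 39 cases and lower in 28, where 1.29% and 0.967% of all entries tested were. How many such entries were tested was not counted. They hold few reads, and the origin of these is not settled. The NIPSNAP3B entry had 11.4, 17.5 and 22.05 CPM in LPDS and 0.34, 1.26 and 3.41 CPM in FBS (3.28 ± 0.45, adjusted p = 1.06e-05). It lies 3.54 kb past the end of ABCA1, the cholesterol export pump on the other strand. The GSS entry, at 24.2, 23.4 and 27.9 CPM in LPDS and 5.79, 5.05 and 6.54 CPM in FBS (2.11 ± 0.29, adjusted p = 8.41e-06), lies 0.471 kb past the end of ACSS2, an acetyl-CoA synthetase. ADO (2.11), which lies 3.51 kb past the end of the early gene EGR2, GABARAPL1 (1.99), EEF1B2 (2.24) and JPT1 (1.95) rose too, on 0.34 to 10.1 CPM. These entries lost their calls under 3 to 9 of 14 alternatives. EEF1B2 overlaps NDUFS1 on the other strand, and JPT1 lies 4.98 kb past the end of ARMC7. GABARAPL1 read from its opposite-strand entry (GABARAPL1-AS1) did not pass, at 0.74 ± 0.28 (adjusted p = 0.18).

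Among entries that fell, GRM4 had 2.35, 1.23 and 4.06 CPM in LPDS and 22.8, 19.9 and 19.6 CPM in FBS (-2.92 ± 0.36, adjusted p = 1.58e-06). The entry of CCM2L under its own name fell to 1.41 ± 0.702 CPM in LPDS, against 11.3 ± 1.2 CPM in FBS (SD, n = 3 each; -2.91 ± 0.51), in the same direction as the entry that reads the gene. PSMF1 (-1.77), which overlaps TMEM74B on the other strand, and ARHGAP4 (-1.66), 0.201 kb past the end of AVPR2, kept their calls under every alternative. VAC14 (-1.98), 26.8 kb past the end of IL34, and TRMT61A (-1.93), 6.07 kb from CKB, did not. Which transcripts supply these reads was not tested.

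The response was then set beside those of the other lines, which share no library with it. Among the 56 genes that rose in SGCTRL, 22 rose in parental cells (39.3% of the 56 and 23.7% of the 93 that rose there, 3.31% of genes), 30 in SG12 (53.6%, and 7.01% of 428, 15.2% of genes) and 22 in SG21 (39.3%, and 22.2% of 99, 3.52% of genes). Among the 42 that fell, 8 fell in parental cells (19.0% of the 42 and 21.1% of the 38 that fell there, 1.35% of genes), 11 in SG12 (26.2%, and 2.05% of 537, 19.1% of genes) and 15 in SG21 (35.7%, and 18.3% of 82, 2.92% of genes). No gene was called the other way in parental cells or SG21, whereas SG12 had 6 of the 56 lower and 12 of the 42 higher. In all 4 lines 12 of the 2810 genes read rose (HMGCS1, LSS, ACAT2, PCYT2, ACLY, LPCAT3, IER2, JUNB, LBHD1, PRUNE2, ERMAP and VEPH1). ANKRD37, LOXL2 and CCM2L fell in all 4. Of the sterol and lipid genes that rose in SGCTRL, CHKA alone passed in no other line, at 0.30 in parental cells, 0.27 in SG12 and 0.28 in SG21.

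A call in SGCTRL and not in another line does not show a difference, so the responses were compared directly. Against parental cells 7 of 12822 entries differed (0.0546%), with 2 higher in SGCTRL (0.0156%), EEF1B2 and PTMA, and 5 lower (0.039%), STAG3 (CASTOR3P), SLC29A2 (B4GAT1-DT), HSPB7, ARHGEF2-AS2 and ENSG00000287200. None of them is a sterol, hypoxia or early gene, and the count fell to 0 without SGCTRL FBS replicate 2 or 3, SGCTRL LPDS replicate 1 or 2, parental FBS replicate 2 or parental LPDS replicate 3. At an unadjusted p under 0.05 there were 1332 (10.4%), and DESeq2 called 31. STAG3, a meiotic cohesin subunit, was at -0.96 in SGCTRL and 0.31 in parental cells, and SLC29A2, a nucleoside transporter, at -0.06 and 0.59. For HMGCS1 the difference, SGCTRL minus parental, was -0.29 ± 0.14 (adjusted p = 0.49) and for SREBF2 -0.37 ± 0.15 (adjusted p = 0.384).

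Against SG12 the responses differed in 1331 entries (10.4%), 540 of them read genes (19.2% of those tested), and the sterol response of SGCTRL was smaller. The difference, SGCTRL minus SG12, was -1.50 ± 0.15 for HMGCS1, -1.55 ± 0.20 for PCYT2 and -1.57 ± 0.17 for TMEM97. It did not pass for LPCAT3, at 0.04 ± 0.13 (adjusted p = 0.883), LBHD1, at -0.31 ± 0.20 (adjusted p = 0.349), or JUNB, at 0.00 ± 0.21 (adjusted p = 0.995). Against SG21 edgeR called 0 entries (0%), with 1070 at an unadjusted p under 0.05 (8.35%) and 43 called by DESeq2. IDI1 had the widest gap there of the 6 cholesterol synthesis genes, at 0.81 in SGCTRL and 0.21 in SG21 (difference 0.60 ± 0.24, adjusted p = 0.468). Ambiguous reads made up 2.10% to 2.24% of reads on genes in SGCTRL libraries, against 2.60% to 2.69% in parental and 2.63% to 3.15% in SG12 libraries, so that this share cannot be told apart from the line there. Within SG12 it was 2.99% to 3.15% in LPDS and 2.63% to 2.80% in FBS. In SG21 it was 2.71%, 2.15% and 2.18% in the LPDS libraries, with 10.9%, 18.1% and 17.2% of reads aligned to more than a single place, and 2.58% to 2.66% in the FBS libraries. The share thus differed between media in SG12 and in 2 of the 3 SG21 LPDS libraries, and its part in these comparisons was not tested.

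**Figure D4:**
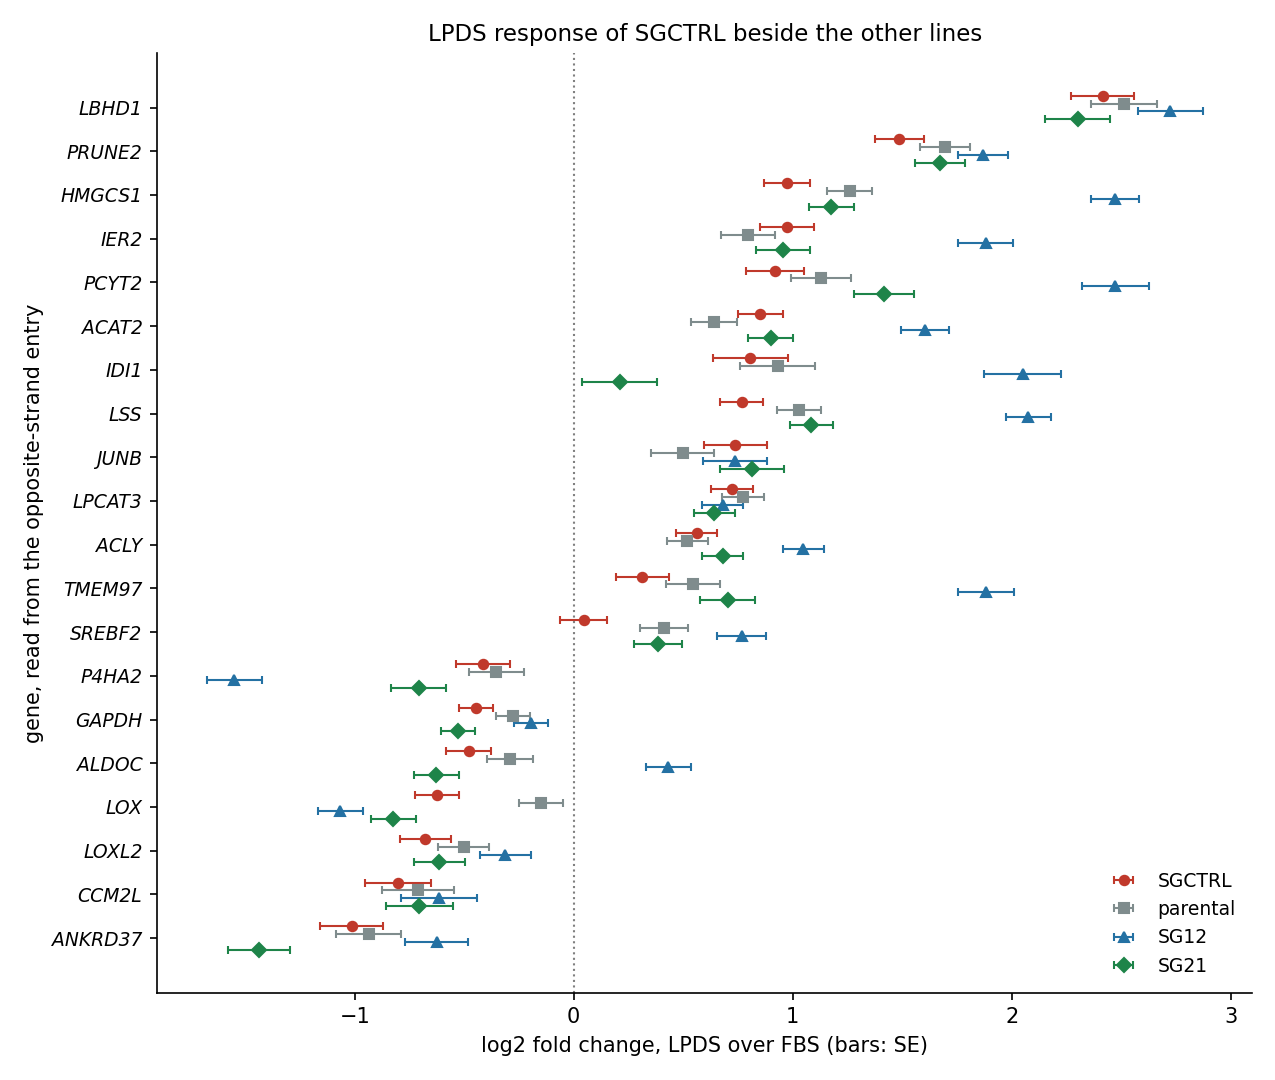
Log2 fold change of LPDS over FBS with its SE for 20 genes in SGCTRL (red circles), parental cells (grey squares), SG12 (blue triangles) and SG21 (green diamonds). SGCTRL lies with parental cells and SG21 for most genes, while SG12 lies to the right in HMGCS1, PCYT2, LSS and TMEM97.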

How the data were processed

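Counts of reads per gene entry were deposited by the authors, 1 table per library, as raw counts. Libraries came from 100 ng of total RNA (Qiagen RNeasy), depleted of ribosomal RNA with Ribo-Zero Plus and made with Illumina's stranded kit, per the labels' protocols. Per the submitters' processing notes, bcl2fastq and STAR were used with hg38. Which program counted reads, with which strand setting and annotation, is not given in the sources used here. The 5 closing rows (reads on no feature, ambiguous and the like) stayed out of library sizes, and reads on no feature were 94.4% to 94.5% of uniquely aligned reads in SGCTRL.

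All 24 libraries, 8 groups of 3, entered 1 edgeR 4.0.16 fit (R 4.3.3, quasi-likelihood F test, TMM, filterByExpr, Benjamini-Hochberg over 12822 entries, adjusted p under 0.05). SE is the absolute log2 fold change over the root of F. CPM uses TMM-scaled library sizes. Replicates differed beyond sampling noise. The fit was tested on counts simulated from its own estimates of spread with independent libraries, which cannot speak to mixing of strands or shared batches.

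Entries were matched to GENCODE 29 (56752 of 61578), and an entry was read as the opposite-strand gene whose exons overlap it by at least 50 bases and make up 80% of such overlap. It was used above 5.74 CPM, which 90% of 9464 protein-coding entries lacking an opposite gene stayed below. After the data were seen, 49 protein-coding genes were set aside whose entry likely draws over 50% of its reads from its own gene. Some mixing of overlapping genes remains.

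Genes were named by 4 rules: a fixed set, up to 5 passing members of each of 26 lists, the 12 largest rises and 12 largest falls above the 99th percentile (48.6 CPM) without overlap, and the 6 largest each way under their own name, with mean log2 CPM of 2 or more. List members, promoter examples and the differing entries of SGCTRL against parental cells are named beyond these, chosen after their values were seen. The comparison, lists and rules were chosen with earlier results of these data known. A few genes are not reported here. Promoters matched 32 of 40 named genes.

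Alternatives were DESeq2 1.42.0, its size factors in edgeR, no and stricter filters (1 CPM in 3 libraries), uniquely aligned reads as library size, the 6 libraries alone, replicate blocks, each library left out and, added after seeing the data, a robust spread.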

Additional observations from a re-analysis of the deposited data

Results flagged for a closer look

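The values below are differences between responses, SGCTRL minus the other line on the log2 scale, that passed edgeR's test of the difference itself (adjusted p under 0.05), among the genes named by rule. Against parental cells the EEF1B2 entry differed by 3.54 ± 0.71 (SE, adjusted p = 0.0454), with 2.24 in SGCTRL and -1.30 in parental cells, on at most 4.92 CPM in any SGCTRL library.

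All others given are against SG12. In sterol and lipid genes the difference was -1.50 for HMGCS1, -1.31 for LSS, -1.24 for IDI1, -0.752 for ACAT2, -1.55 for PCYT2, -1.26 for ACSL3, -0.488 for ACLY, -1.57 for TMEM97 and -0.72 for SREBF2. The early genes IER2 and NR4A1 differed by -0.908 and -0.688. Among hypoxia and matrix genes, P4HA2 differed by 1.14 (-0.41 in SGCTRL and -1.55 in SG12), LOX by 0.44 (-0.63 and -1.07) and ALDOC by -0.911 (-0.48 and 0.43).

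WARS1 differed by 2.59 ± 0.14 (adjusted p = 8.61e-16), at 0.37 in SGCTRL and -2.23 in SG12, ATF5 by 1.58 and CABLES1 by 1.33. Genes that fell in SGCTRL, and in SG12 rose or did not pass, gave -1.52 for CDCA3, -1.07 for SNAPC3, -1.65 for ARHGAP33, -1.84 for WDR90, -1.23 for DNAJC17, -0.485 for SEPTIN2 and -0.476 for PLEKHG3. Under their own names EEF1B2 differed by 3.40 and GRM4 by -1.98. No named gene differed against SG21. Groups of 3 libraries are too small for a test of single outlying libraries, and none was made.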

How the results depend on the processing

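The count of 289 entries (165 higher and 124 lower) was 654 (333 and 321) with the 6 SGCTRL libraries alone, and in that fit with a replicate block 425, with 212 lower. It was 383 by DESeq2, 299 with a robust spread, 243 with the replicate block over all libraries, and 238 to 292 under the other scalings and filters. Without single libraries it was 121 to 180, with 76 to 103 higher and 45 to 83 lower.

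Same-numbered SGCTRL libraries deviated with correlations of 0.04, -0.24 and -0.14 over 7950 entries. None of the 3 LPDS libraries correlated best with the FBS library of its number. Deviations from a mean of 3 libraries constrain each other, so these values cannot show whether the numbers mark a shared day or batch.

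The difference from parental cells, 7 entries, was 31 by DESeq2, 0 with DESeq2's size factors, 85 without a filter, 4 with the replicate block and 0 to 24 without single libraries, most without parental LPDS replicate 2. That from SG12, 1331, was 953 to 1705 without single libraries. That from SG21, 0, was 43 by DESeq2, 46 without a filter, 2 with the stricter one, 6 with a robust spread and 0 to 241 without single libraries, highest without SG21 LPDS replicate 1. The cause of these shifts was not tested.

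Of 46 named calls 30 held under every one of up to 15 alternatives, 16 were lost under at least 1 and none reversed. Of 6 named genes not called, TMEM97 and P4HA2 gained a call under some. At 2.95 to 5.54 M reads on genes, entries of a few CPM rest on few reads, as 5, 2 and 11 in LPDS and 36, 37 and 35 in FBS for CCM2L under its own name.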
